A study of Homo sapiens with 4 samples.

Results

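Cluster 0 is 1 of the 8 groups into which the authors' deposited annotation divides MM134 cells, and its members were taken by that cluster number alone. It held 862 of 3367 cells in the estradiol library (25.6%) and 946 of 4940 cells in the vehicle library (19.1%), which makes 1808 of 8307 cells in all (21.8%). MM134 (MDA MB 134VI) is an established line of invasive lobular breast carcinoma. Its cells were deprived of hormone and then given 100 nM estradiol (E2) for 24 h or the vehicle, 0.01% ethanol, for 24 h. The same cells carry 3 kinds of deposited rows: plain gene symbols (all-gene rows), a targeted cancer panel (panel rows), and Haircut rows, which read how each cell's enzymes process synthetic DNA hairpins that carry a lesion (repair rows). There is 1 library per treatment and assay, so nothing was tested, no p-value is given, and every 95% interval in brackets covers counting error only, with each unique molecular identifier (UMI, a tag that marks 1 captured molecule) taken as independent.

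The authors called most cells of cluster 0 G2M, and this label was checked first. The authors' phase was G2M in 672 of 862 E2 cells (78.0% [75.04 to 80.7]) and in 773 of 946 vehicle cells (81.7% [79.1 to 84.1]). It was S in 20.4% of E2 cells and 16.7% of vehicle cells, and G1 in 14 and 15 cells. Among all other cells, G2M calls made up 22.2% of the E2 library and 22.6% of the vehicle library. When phases were called again with every cell thinned to 800 UMIs, the G2M share of cluster 0 was 75.8% in E2 cells and 78.7% in vehicle cells, with 10 and 23 shallower cells left out. The genes that lead the cluster were not mitotic genes, however. They were replication-dependent histone genes, and 4 of the 5 mitotic gene lists stood lower than in other cells called G2M, so the cells are called cluster 0 below and are given no cell-cycle name.

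Replication-dependent histone genes encode the H1, H2A, H2B, H3 and H4 proteins that package newly copied DNA, and in most cells their transcripts accumulate while DNA is being replicated and are lost when replication ends. These transcripts are short, lack introns, and mostly end in a stem-loop bound by SLBP in place of a poly(A) tail. Entry into mitosis is driven by CDK1 with cyclin A and cyclin B, held back by WEE1 and PKMYT1, released by CDC25 phosphatases, and followed by PLK1, the Aurora kinases and, at anaphase, CDC20. Estradiol acts through the estrogen receptor ESR1, and in luminal breast cells it induces genes such as PGR, GREB1 and CCND1 and moves cells out of G1.

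Promoter sequence is shown because the histone transcripts stood together at the head of the cluster. The 200 bases before the annotated start are given 5′ to 3′ on the gene's own strand for 3 histone genes and, for contrast, for the mitotic genes CCNB1 and CDK1. Capitals mark words searched on both strands. The CCAAT box reads as ATTGG where it lies on the other strand, and it is known from histone and mitotic promoters alike. The words TTTGAA and also TTCGAA are known from mitotic promoters. The octamer core ATTTGCA is known from H2B promoters. The TATA words searched were TATAAA and, as a variant, TATATA, and they and the octamer core were added after values had been seen.
HIST1H1C: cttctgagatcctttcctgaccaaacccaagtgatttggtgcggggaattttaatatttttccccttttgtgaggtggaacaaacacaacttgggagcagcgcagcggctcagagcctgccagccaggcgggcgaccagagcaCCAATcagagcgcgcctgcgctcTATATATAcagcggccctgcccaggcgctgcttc
HIST1H3B: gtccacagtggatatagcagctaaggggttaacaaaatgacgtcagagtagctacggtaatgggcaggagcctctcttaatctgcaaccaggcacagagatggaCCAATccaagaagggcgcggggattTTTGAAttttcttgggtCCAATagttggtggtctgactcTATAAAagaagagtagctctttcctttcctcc
HIST1H2BH: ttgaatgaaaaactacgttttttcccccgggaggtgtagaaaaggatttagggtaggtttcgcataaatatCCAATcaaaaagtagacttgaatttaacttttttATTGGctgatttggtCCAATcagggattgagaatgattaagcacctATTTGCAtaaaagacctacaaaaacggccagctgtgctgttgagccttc
CCNB1: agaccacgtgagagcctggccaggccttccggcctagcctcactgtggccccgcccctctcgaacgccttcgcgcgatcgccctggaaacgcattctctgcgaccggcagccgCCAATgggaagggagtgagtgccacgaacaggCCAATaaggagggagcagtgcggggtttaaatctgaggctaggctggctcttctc
CDK1: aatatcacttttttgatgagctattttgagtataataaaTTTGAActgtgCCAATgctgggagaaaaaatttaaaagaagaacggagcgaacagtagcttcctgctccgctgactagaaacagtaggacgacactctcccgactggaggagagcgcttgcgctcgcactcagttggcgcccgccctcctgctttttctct
The windows are from RefSeq on GRCh38.p14: HIST1H1C at chr6:26056471-26056670 (minus strand), HIST1H3B at chr6:26032100-26032299 (minus strand), HIST1H2BH at chr6:26251414-26251613 (plus strand), CCNB1 at chr5:69166950-69167149 (plus strand) and CDK1 at chr10:60778131-60778330 (plus strand). HIST1H3B holds TATAAA 32 bases before its start, with TTTGAA at 71 bases and CCAAT at 54 and at 96 bases. HIST1H1C holds CCAAT at 57 bases, upstream of overlapping TATATA words at 34 and 32 bases. CCNB1 holds CCAAT at 55 and at 87 bases, and CDK1 holds CCAAT at 150 and TTTGAA at 161 bases.

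Over windows of 300 bases (250 before to 50 after the start), 30 of the 36 histone genes measured in the all-gene rows had a sequence. CCAAT stood in 26 of the 30 histone windows (86.7%), in 61 of 81 windows of the G2/M lists (75.3%), and in 35.7% of all 27305 windows. TATAAA or TATATA stood in 23 of the 30 histone windows (76.7%), in 7 of the 81 G2/M windows (8.64%) and in 14.2% of all windows. TTTGAA or TTCGAA showed the other order, with 56 of 81 G2/M windows (69.1%), 10 of 30 histone windows (33.3%) and 16.6% of all windows. ATTTGCA stood in 11 of the 30 histone windows (36.7%), in 4 of the 7 H2B windows, in 0 of the 81 G2/M windows and in 4.23% of all windows. Of the measured histone genes with a RefSeq position, 29 lie on chromosome 6 and 3 on chromosome 1, and those on chromosome 6 fall between positions 26031589 and 27893891. A match is a word in the sequence, not a bound site.

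The histone transcripts set cluster 0 apart in both libraries. The 15 panel histone genes took 2.52% [2.504 to 2.543] of panel UMIs in E2 cells of cluster 0 and 0.554% [0.549 to 0.559] in the other E2 cells. In the vehicle library they took 2.65% [2.63 to 2.67] in cluster 0 and 0.488% [0.484 to 0.492] elsewhere. This share was a property of the cells at large and not of a few of them: the median cell of cluster 0 gave 2.499% with E2 and 2.64% with vehicle, and 10% of its cells lay below 1.22% and 1.13%. In the other cells the median was 0.263% with E2 and 0.266% with vehicle, and 90% of them lay below 1.14% and 0.894%. The next cluster in order was cluster 3, at 0.788% with E2 and 0.802% with vehicle. Its cells overlapped those of cluster 0, with an upper quartile of 1.20% with E2 and 1.26% with vehicle, and 10% above 2.07% and 1.98%. Among other cells called G2M, 10% lay above 2.16% with E2 and 1.67% with vehicle. Cluster 4, in which every cell was called G2M, held 0.567% and 0.653%. Because the authors' clusters were made from these cells, the difference from the rest describes the cluster and is not a test of it.

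**Figure D1:**
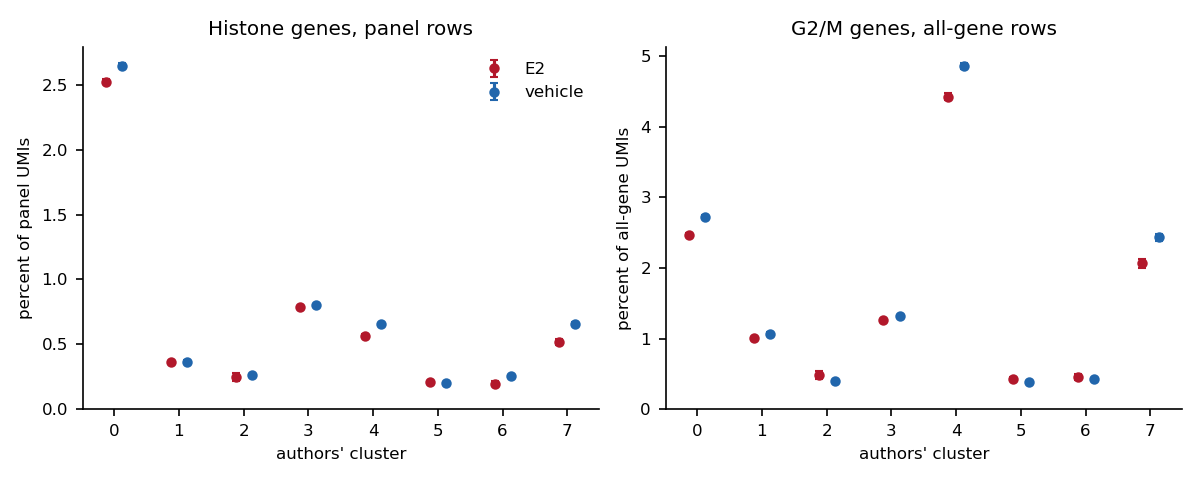
Share of panel UMIs from replication-dependent histone genes (left, percent) and share of all-gene UMIs from the G2/M lists (right, percent) in clusters 0 to 7, with E2 in red, vehicle in blue and exact 95% binomial intervals as bars. Cluster 0 has the highest histone share (2.52% with E2, 2.65% with vehicle), while its G2/M share (2.47% and 2.72%) is below that of cluster 4 (4.43% and 4.86%).

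Among the histone genes, the linker histone gene HIST1H1C had 8771 CPM (its UMIs scaled to a common total of panel UMIs) in E2 cells of cluster 0 and 1734 CPM in other E2 cells. In the vehicle library it had 9624 CPM in cluster 0 and 1530 CPM in other cells. Its ratios were 5.06-fold with E2 and 6.29-fold with vehicle, and in no other cluster did it pass 2766 CPM in either library. HIST1H3D, which encodes histone H3, had 4522 against 754 CPM with E2 (log2 2.58) and 4271 against 517 CPM with vehicle (log2 3.05). HIST1H3B, another H3 gene, had 3602 against 678 CPM with E2 (5.31-fold) and 3752 against 466 CPM with vehicle (8.05-fold). The H3 genes HIST1H3F, HIST1H3G and HIST1H3H and the linker gene HIST1H1E stood between 3.94-fold and 6.17-fold higher over the 2 libraries. HIST1H3E was 1.504-fold higher with E2 and 1.46-fold higher with vehicle, the smallest ratios among the H3 genes named.

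The all-gene rows, which count the same cells and are not independent of the panel rows, held more histone genes. There 36 histone genes were measured in both libraries (at least 50 UMIs over the groups compared), and 31 of them were at least 1.5-fold higher in cluster 0 in both, beside 2.41% of the 9124 genes measured. HIST1H4C, an H4 gene, had 3643 CPM in cluster 0 against 872 CPM in other cells with E2, and 3150 against 606 CPM with vehicle. HIST1H2AL, an H2A gene, was 6.23-fold higher with E2 (173 against 27.7 CPM) and 10.0-fold higher with vehicle (145 against 14.4 CPM). HIST1H1D and HIST2H2AC were 5.52-fold and 4.39-fold higher with E2. Of the H2B genes, HIST1H2BC was 4.89-fold higher with E2 and 6.47-fold higher with vehicle. HIST1H2BH, whose promoter is printed above, was 3.89-fold and 3.95-fold higher. Reads of near-identical histone genes can be split between copies in ways the files do not show, so values of single histone genes are less certain than those of the group.

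A minority of histone genes did not follow. HIST1H2BD was 1.55-fold higher in panel rows with E2 but had 795 against 768 CPM with vehicle (1.04-fold). HIST2H2BE had 12.6 against 9.98 CPM with E2 and 12.4 against 13.0 CPM with vehicle in all-gene rows. HIST3H2A was lower in cluster 0, with 22.4 against 33.7 CPM (0.664-fold) with E2 and 32.0 against 61.9 CPM (0.518-fold) with vehicle. The replacement histone H3F3A, made outside replication too, was close to even in panel rows at 1.08-fold in each library. The list of histone genes was drawn up after values had been seen and is used as a description. SLBP itself had 78.4 against 55.7 CPM with E2 and 77.2 against 46.9 CPM with vehicle.

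Over the panel rows, 11 of 805 genes were at least 2-fold higher in cluster 0 in both libraries (1.37%), and 3 were at least 2-fold lower (0.373%). The histone genes made up 7 of those 11. The other 4 were AURKB, TOP2A, FANCI and LAMA3. AURKB, the kinase of the chromosomal passenger complex, had 704 against 297 CPM with E2 and 722 against 267 CPM with vehicle. TOP2A, the topoisomerase that untangles sister chromatids, had 32152 against 14636 CPM with E2 and 38546 against 18700 CPM with vehicle. FANCI, which works with FANCD2 at interstrand crosslinks, had 2286 against 1118 CPM with E2 and 2388 against 801 CPM with vehicle. LAMA3, a laminin chain, had 62.4 against 31.1 CPM with E2 and 33.8 against 16.2 CPM with vehicle. The G1 kinase inhibitors CDKN2D and CDKN2C were 1.96-fold and 1.94-fold higher with E2, and 1.79-fold and 1.71-fold higher with vehicle.

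**Figure D2:**
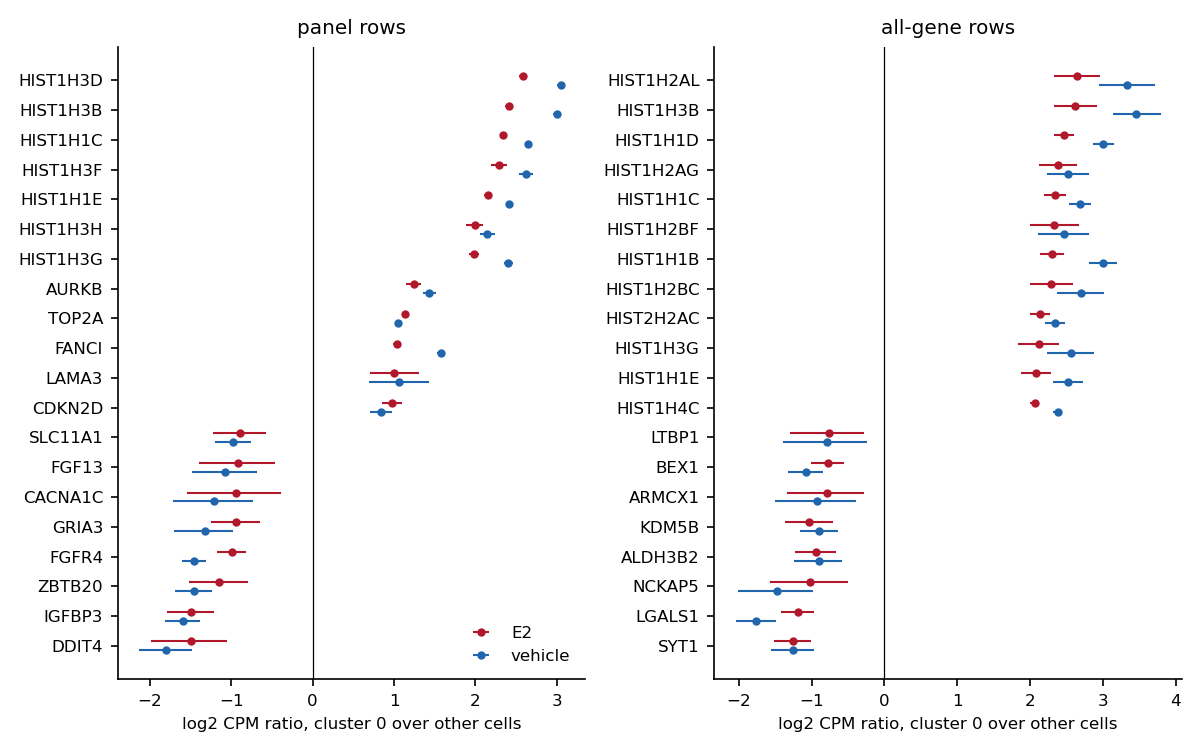
Log2 ratio of CPM in cluster 0 to CPM in all other cells, for the 12 highest and 8 lowest genes of the panel rows and of the all-gene rows, with E2 in red, vehicle in blue and exact 95% intervals of counting error. Histone genes fill the top places in both blocks, and DDIT4 (-1.50 with E2, -1.80 with vehicle) is lowest in the panel.

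In the all-gene rows, 33 of 4676 genes were at least 2-fold higher in cluster 0 in both libraries (0.706%) and 3 were at least 2-fold lower (0.0642%). All 12 genes with the highest ratios there were histone genes. Genes of the mitotic programme stood higher by less. Of the centromere and kinetochore list, 8 of 17 were at least 1.5-fold higher in both libraries, beside 2.41% of all genes measured, with list medians of 0.80 log2 with E2 and 0.82 with vehicle. SPC25, an outer kinetochore subunit, had 232 against 85.6 CPM with E2 and 192 against 55.2 CPM with vehicle. Of the chromosome structure list 11 of 19 were raised, among them MKI67, the proliferation antigen that coats mitotic chromosomes, with 1402 against 678 CPM with E2 and 1419 against 653 CPM with vehicle. The condensin subunit NCAPG was 2.16-fold higher with E2 and 2.57-fold higher with vehicle. Of the spindle list 13 of 28 were raised, including NUSAP1, a microtubule binder, at 2.16-fold and 2.34-fold. The spindle checkpoint and anaphase list had 6 of 15 raised, and FBXO5, an inhibitor of the anaphase-promoting complex before mitosis, was 2.10-fold and 4.08-fold higher. Of the CDK1 and cyclin list 5 of 15 were raised. CDK1 itself had 388 against 159 CPM with E2 and 460 against 174 CPM with vehicle.

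CCNB1 and PLK1 did not share this. CCNB1, cyclin B, had 2260 against 2140 CPM in panel rows with E2 and 2383 against 2763 CPM with vehicle. PLK1 had 34.3 against 54.6 CPM in all-gene rows with E2 (0.628-fold) and 49.5 against 59.3 CPM with vehicle (0.835-fold). When cells called G2M inside cluster 0 were set beside cells called G2M outside it, 4 of the 5 mitotic lists in all-gene rows changed sides. The median log2 ratio, taking for each gene the library nearer 0 (and 0 where the signs differed), was -0.46 for the spindle list, -0.34 for the centromere list and -0.23 for the checkpoint list. The CDK1 and cyclin list stood at -0.53, and the chromosome structure list of 19 genes at 0.0. TOP2A then had -0.16 log2 over panel rows and -0.13 over all-gene rows, while MKI67 had -0.16 over all-gene rows. The S phase list of 16 genes stood at 0.44 in panel rows in the same comparison. Of the 11 panel genes called higher against all other cells, 7 were called in this comparison as well, as were 14 of the 33 all-gene genes. Fewer genes met the count minimum here, 734 in the panel against 805 and 2134 in all-gene rows against 4676. A gene not called here may therefore not have been tested.

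The S phase and replication list depended on the library. Against all other cells, its 16 panel genes had a median log2 ratio of 0.15 with E2 and 0.64 with vehicle, and 0 and 9 of them were at least 1.5-fold higher. RRM2, which supplies deoxynucleotides, was 2.92-fold higher with E2 (248 against 84.7 CPM) and 4.95-fold higher with vehicle (226 against 45.6 CPM) in all-gene rows. FEN1, which trims Okazaki fragments, was 1.47-fold and 2.01-fold higher in panel rows. PCNA, the sliding clamp, was 1.30-fold and 1.82-fold higher. The other cells themselves differed in phase: S calls made up 32.0% of them with E2 and 15.4% with vehicle, while S calls in cluster 0 were 20.4% and 16.7%. The part of that difference in these ratios was not tested.

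Homologous recombination genes of the panel were mostly higher in cluster 0 than in all other cells, a mixture of phases, by modest amounts. Genes of other repair and damage-signalling lists are named singly here, and not all of them were higher. Of 19 homologous recombination genes in the panel, 15 were above 1 in both libraries, beside 327 of all 884 panel genes measured. In both libraries 1 passed 1.5-fold, beside 3.96% of all panel genes measured, and the list median was 0.31 log2 with E2 and 0.56 with vehicle, against medians of -0.03 and -0.02 over all panel genes tested. BRCA2, a mediator of homologous recombination, had 970 against 674 CPM with E2 and 1177 against 527 CPM with vehicle. RAD54L, a DNA motor of strand exchange, was 1.52-fold and 2.37-fold higher. POLQ, the polymerase of alternative end joining, was 1.60-fold and 2.40-fold higher. H2AFX, the histone variant that is phosphorylated at breaks, had 926 against 532 CPM with E2 and 1067 against 489 CPM with vehicle. MDC1 (chr6:30699807-30717281), the adaptor that binds phosphorylated H2AFX and is named in the study's title, was not raised, with 763 against 861 CPM with E2 (0.886-fold) and 864 against 870 CPM with vehicle (0.994-fold). PARP1, the sensor of strand breaks, was 1.14-fold and 1.20-fold higher, and its partner PARP2 was 1.62-fold and 1.92-fold higher.

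The genes lowest in cluster 0 came from several pathways. DDIT4, an inhibitor of mTORC1, had 18.1 against 51.0 CPM with E2 and 30.9 against 108 CPM with vehicle. IGFBP3, which binds insulin-like growth factors, had 46.4 against 131 CPM with E2 and 66.9 against 202 CPM with vehicle. ZBTB20, a zinc finger repressor, completed the 3 panel genes called lower, at 0.450-fold and 0.363-fold. FGFR4 (0.502-fold and 0.365-fold) lay just inside the uncalled side. Among cells called G2M alone, 4 of 734 panel genes tested were called lower, and 0 of the 3 were among them. The 3 may have missed the count minimum there, so this does not show that they were even at that phase. In all-gene rows SYT1, a calcium sensor of vesicle release, was 0.417-fold and 0.419-fold, and LGALS1, galectin-1, 0.439-fold and 0.294-fold. The luminal keratin gene KRT8 had 925 against 1496 CPM with E2 and 517 against 816 CPM with vehicle, and KRT19 was 0.730-fold and 0.610-fold. ESR1 was lower as well in panel rows, at 2691 against 3516 CPM with E2 and 2608 against 3520 CPM with vehicle. CCND1, the cyclin of G1, had 111850 against 158120 CPM with E2 and 63403 against 121210 CPM with vehicle.

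Markers of immune, endothelial, basal and myoepithelial cells were near 0, and the mesenchymal list was not. Of 14 immune and endothelial markers in all-gene rows, 12 were at 0 in both cluster 0 and the other cells in each library, and the list summed to at most 0.700 CPM in cluster 0. The 10 basal and myoepithelial markers summed to 9.10 CPM with E2 and 15.3 CPM with vehicle in cluster 0, beside 13.97 and 14.61 CPM in other cells, with 6 at 0. The mesenchymal list was at 176 and 229 CPM in cluster 0, VIM among them (97.3 CPM with E2 and 107 CPM with vehicle), beside 235 and 329 CPM in other cells. The cells of cluster 0 had median depths of 1630 all-gene UMIs with E2 and 1400 with vehicle, beside 1518 and 1117.5 in other cells, and 2716 and 2801.5 panel UMIs beside 2639 and 2241.5. Their median mitochondrial share was 7.77% and 7.46%, beside 7.55% and 7.71%. Of the cell barcodes that the libraries share, 0 belonged to cluster 0 in the E2 library and 1 in the vehicle library, among 4 such cells in each library.

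Cluster 4 is the cluster nearest to cluster 0 by phase, with 252 E2 cells and 482 vehicle cells, all called G2M. Cells called G2M in cluster 0 were therefore set beside it. Of 700 panel genes, 18 were at least 2-fold higher in cluster 0 in both libraries (2.57%) and 10 were at least 2-fold lower (1.43%). CCNB1 had 2556 CPM in cluster 0 against 10197 CPM in cluster 4 with E2, and 2654 against 10705 CPM with vehicle. AURKA, the centrosome kinase, had 1221 against 4837 CPM with E2 and 1257 against 4541 CPM with vehicle. CENPA, the histone H3 of the centromere, was 0.286-fold and 0.284-fold. CCNA2, cyclin A, was 0.393-fold and 0.432-fold. AURKB, by contrast, differed little (0.804-fold and 0.841-fold).

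Histone and S phase genes made up the other side of that comparison. HIST1H1C was 5.32-fold higher in cluster 0 than in cluster 4 with E2 (8952 against 1681 CPM) and 5.11-fold higher with vehicle (9877 against 1932 CPM). CCNE2, a cyclin of S phase entry, had 395 against 75.6 CPM with E2 and 441 against 104 CPM with vehicle. E2F1, the transcription factor of S phase genes, was 3.17-fold and 2.97-fold higher. HELLS, a chromatin remodeller, was 2.90-fold and 2.96-fold higher, and PCNA 2.54-fold and 2.83-fold. Of the 16 S phase genes in the panel, 15 were at least 1.5-fold higher in both libraries, beside 50 of all 806 genes measured, with medians of 1.14 log2 with E2 and 1.24 with vehicle. BRCA1 was 1.79-fold and 1.80-fold higher, and RAD54L 2.07-fold and 2.45-fold.

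**Figure D3:**
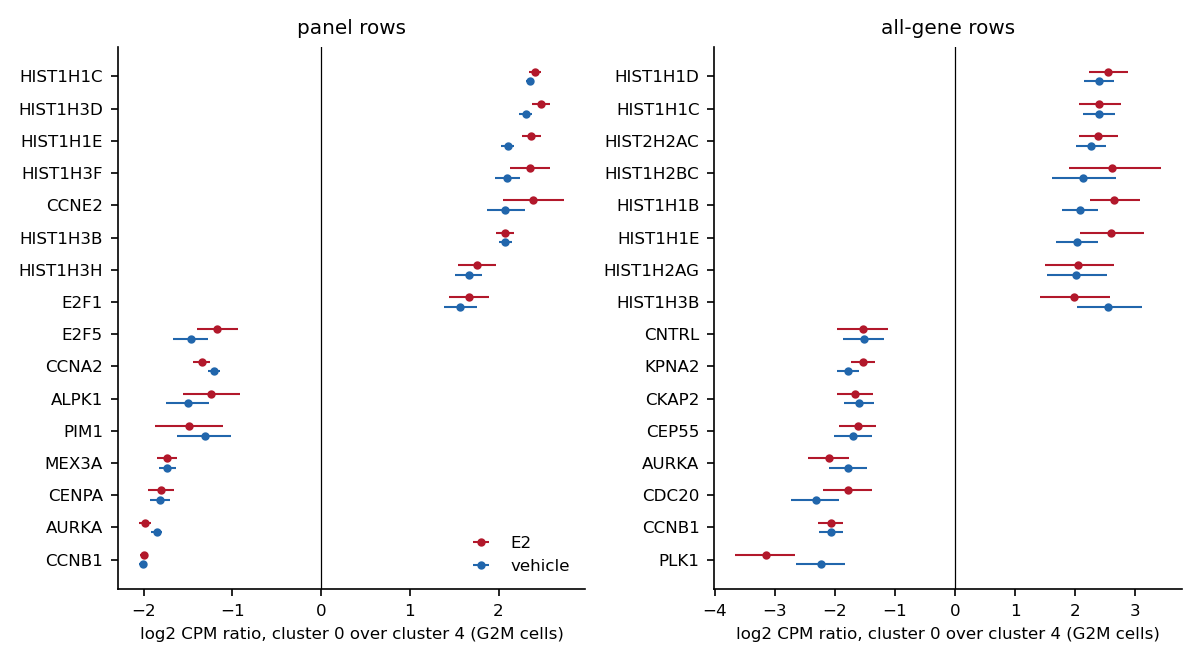
Log2 ratio of CPM in cells called G2M of cluster 0 to CPM in cluster 4, for the 8 highest and 8 lowest genes of the panel rows and of the all-gene rows, with E2 in red, vehicle in blue and exact 95% intervals. Histone and S phase genes stand above 0 and mitotic genes below it in both libraries, with CCNB1 lowest in the panel (-2.01 with vehicle).

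The all-gene rows gave the same picture over longer lists. Of 1518 genes, 20 were at least 2-fold higher in cluster 0 than in cluster 4 in both libraries (1.32%), and 38 were at least 2-fold lower (2.5%). Of the mitotic lists, 21 of 27 spindle genes, 12 of 17 centromere genes, 8 of 13 checkpoint genes and 9 of 15 genes of the CDK1 and cyclin list were at least 1.5-fold lower in both libraries, beside 3.68% of the 5161 genes measured. Of the chromosome structure list 3 of 19 were. PLK1 had 37.8 CPM in cluster 0 against 334 CPM in cluster 4 with E2, and 56.6 against 265 CPM with vehicle. CDC20, the activator of the anaphase-promoting complex, was 0.290-fold and 0.200-fold. CENPE, a kinetochore motor, had 428 against 1501 CPM with E2 and 559 against 1570 CPM with vehicle, and KPNA2, an importin, was 0.346-fold and 0.292-fold. CDK1 differed less, at 0.775-fold and 0.753-fold. Of the histone genes 25 of 26 stood at least 1.5-fold higher, beside 2.73% of all genes measured.

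Inside cluster 0, cells called G2M and cells called S differed in the genes that phase calls are built on, which is a description and not a result. Of 661 panel genes, 4 were at least 2-fold higher in the G2M cells in both libraries (0.605%) and 5 were at least 2-fold lower (0.756%). The 4 were CENPA, CCNB1, AURKA and MEX3A. CCNB1 had 2556 CPM in G2M cells against 1073 CPM in S cells with E2, and 2654 against 1041 CPM with vehicle. CCNE2 had 395 against 1099 CPM with E2 and 441 against 1278 CPM with vehicle. In all-gene rows 1 of 1058 genes was called higher (0.0945%), CENPE, and 5 were called lower (0.473%).

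The histone genes did not divide these cells. Histone transcripts took 2.54% of panel UMIs in G2M cells and 2.48% in S cells with E2, and 2.67% and 2.61% with vehicle. The 10 measured panel histone genes had a median log2 ratio of 0.01 between G2M and S cells in each library, and 0 of the 10 passed 1.5-fold in both. HIST1H3B had 3575 against 3702 CPM with E2 and 3750 against 3928 CPM with vehicle. The few cells called G1 also carried a raised share, of 2.003% [1.86 to 2.15] in 14 E2 cells and 1.68% [1.56 to 1.80] in 15 vehicle cells. Outside cluster 0, cells called S held 0.555% with E2 and 0.508% with vehicle, and cells called G2M held 0.937% and 0.792%.

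E2 was next set against vehicle inside cluster 0. Most listed targets of the estrogen receptor stood on their known sides. The lists were chosen with earlier results of these data known, so the counts are a description and not a test. On the estrogen-induced list, 10 of the 11 panel genes measured were at least 1.5-fold higher with E2 and the list median was 0.85 log2. On the estrogen-repressed list, 9 of 10 were lower by that much and the median was -0.89. Over all 852 panel genes measured, 4.11% were that much higher and 11.2% that much lower, with a median of -0.11. By the 2-fold rule, 7 of 757 panel genes were higher with E2 (0.925%) and 12 were lower (1.59%). In the other cells of the same libraries 4 of 823 panel genes were at least 2-fold higher (0.486%) and 25 at least 2-fold lower (3.04%).

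EGR3, an immediate-early zinc finger factor, had 274 CPM in E2 cells of cluster 0 and 97.5 CPM in vehicle cells, a log2 ratio of 1.49 [1.29 to 1.70]. WNT4, a ligand that lobular cells make under estrogen, had 277 CPM with E2 and 106 CPM with vehicle (1.39 [1.19 to 1.59]). PMAIP1, the p53 target that encodes NOXA, had 180 against 73.4 CPM (1.30), and RASGRP1, a Ras activator, 148 against 68.4 CPM (1.12). MYC had 267 against 125 CPM (1.10), ZNF703, a luminal corepressor, 10798 against 5130 CPM (1.07), and the tau gene MAPT 92.3 against 44.3 CPM (1.06). CCND1, just under the 2-fold line, had 111850 against 63403 CPM (0.82). PGR, the progesterone receptor gene, had only 58 UMIs with E2 and 22 with vehicle, or 23.8 against 7.92 CPM (1.59 [0.86 to 2.37]). The receptor gene ESR1 itself had 2691 against 2608 CPM (0.05).

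Among the genes lower with E2, TXNIP, an inhibitor of thioredoxin and of glucose uptake, had 538 CPM with E2 and 2231 CPM with vehicle, a log2 ratio of -2.05 [-2.14 to -1.97]. IL1R1, the interleukin-1 receptor, had 250 against 673 CPM (-1.43). CXXC4, an inhibitor of WNT signalling, had 62.8 against 166 CPM (-1.40), and DUSP6, the phosphatase of ERK, 509 against 1331 CPM (-1.39). BTG2, an antiproliferative gene, had 278 against 675 CPM (-1.28), and FOS 567 against 1166 CPM (-1.04). Of the list of G1 and growth-restraint genes, 7 of 17 were at least 1.5-fold lower and 2 were higher, with a median of -0.53.

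The all-gene rows added genes outside the panel. There 11 of 2562 genes were at least 2-fold higher with E2 inside cluster 0 (0.429%) and 13 were at least 2-fold lower (0.507%). In the other cells 32 of 6624 were higher (0.483%) and 30 lower (0.453%), over more genes because more UMIs were counted. PEG3, an imprinted zinc finger gene, had 265 CPM with E2 and 86.7 CPM with vehicle (log2 1.61). IGFBP4 had a log2 ratio of 1.44, STC2, a secreted glycoprotein, 134 against 50.2 CPM (1.41), and AREG, a ligand of the EGF receptor, 264 against 117 CPM (1.17). C6orf141 had the highest ratio of those tested, with 226 against 67.7 CPM (1.74). GREB1, an ESR1 cofactor and target, had 78.4 against 33.5 CPM (1.23 [0.72 to 1.75]) from 112 and 46 UMIs. SLC12A2, an ion cotransporter, had 72.1 against 269 CPM (-1.90), and SAT1, which acetylates polyamines, 47.6 against 146 CPM (-1.62).

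The mitotic and histone genes named differed by less than 1.5-fold with E2 inside the cluster. HIST1H1C had 8771 CPM with E2 and 9624 CPM with vehicle, a log2 ratio of -0.13 [-0.16 to -0.11]. None of the 10 measured panel histone genes passed 1.5-fold in either direction, and their ratios ran from -0.22 to 0.14. TOP2A had 32152 against 38546 CPM (-0.26) and CCNB1 2260 against 2383 CPM (-0.08). WEE1, the kinase that holds CDK1 inactive, had 2142 against 2960 CPM (-0.47), and CDC25C, the phosphatase that frees it, 345 against 469 CPM (-0.44). MDC1 had 763 against 864 CPM (-0.18 [-0.27 to -0.09]). PARP1 had 5540 against 4670 CPM (0.25) and PARP2 787 against 736 CPM (0.10).

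**Figure D4:**
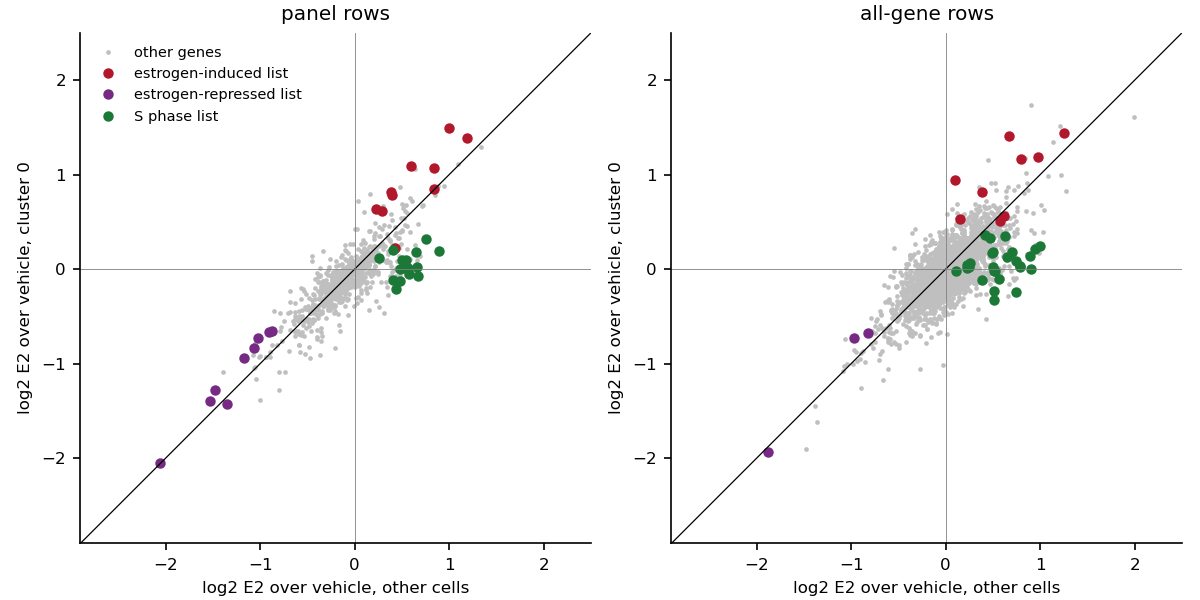
Log2 ratio of E2 to vehicle in all other cells (horizontal) and in cluster 0 (vertical) for genes that met the count minimum in panel rows (left) and all-gene rows (right), with estrogen-induced, estrogen-repressed and S phase genes in colour and a diagonal where both are equal. Most estrogen-induced genes lie on or above the diagonal, while S phase genes of the panel lie near 0 in cluster 0 (list median 0.02) and higher outside it (0.53).

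The S phase genes differed between cluster 0 and the other cells. Inside the cluster 0 of 16 S phase genes in the panel were at least 1.5-fold higher with E2, and the list median was 0.02 log2. Outside it 5 of 16 passed 1.5-fold, with a median of 0.53, and all 16 were above 0. Of all panel genes measured, 4.11% passed it inside and 4.30% outside. In all-gene rows the counts were 1 of 49 inside (median 0.06) and 26 of 49 outside (median 0.61), beside 305 of 6934 and 503 of 10533 of all genes measured. CDC6, which loads the replicative helicase, had 1082 CPM with E2 and 946 CPM with vehicle inside (0.19), and 1115 against 603 CPM outside (0.89). MCM2, a helicase subunit, had 722 against 717 CPM inside (0.01) and 880 against 597 CPM outside (0.56). HIST1H3B had 3602 against 3752 CPM inside (-0.06) and 678 against 466 CPM outside (0.54).

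Panel repair lists had lower medians inside than outside. Homologous recombination had -0.06 inside and 0.17 outside, base excision 0.10 and 0.29, and end joining 0.09 and 0.37, beside -0.09 and -0.10 over all panel genes tested. With median-of-ratios size factors the homologous recombination median inside was 0.03. BRCA2 had 970 CPM with E2 and 1177 CPM with vehicle inside (-0.28), and 674 against 527 CPM outside (0.36). BRIP1, the helicase partner of BRCA1, had 379 against 437 CPM inside (-0.21) and 300 against 221 CPM outside (0.44). These differences were not tested. Beside them stands the phase makeup: S calls were 20.4% with E2 and 16.7% with vehicle inside, and 32.0% and 15.4% outside. With only cells called G2M counted, the S phase median inside the cluster was 0.03. How far phase makeup accounts for the values outside was not tested.

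Some estrogen-responsive genes had near-equal ratios in both sets of cells, which are different cells of the same libraries, and others did not. The induced list had medians of 0.85 log2 inside and 0.59 outside, with 10 and 6 of 11 genes at least 1.5-fold higher, and the repressed list -0.89 and -1.17. TXNIP had -2.05 inside and -2.06 outside, and RASGRP1 1.12 and 1.10. EGR3 had 1.49 inside and 0.99 outside, MYC 1.10 and 0.59, and CCND1 0.82 and 0.38. Of the 757 panel genes measured in both sets, 33 differed by at least 0.5 log2. SH2B3, an adaptor that restrains JAK2 signalling, had the highest difference (0.72 inside, 0.03 outside), from 124 UMIs with E2 and 86 with vehicle inside. DCX, a microtubule-associated protein, had 0.80 inside and 0.16 outside. In all-gene rows TFF3, a secreted trefoil peptide, had 280 CPM with E2 and 146 CPM with vehicle inside (0.94), and 255 against 238 CPM outside (0.10). TFF1, a classical estrogen target, was too sparse for the rule, with 69 and 9 UMIs inside (48.3 against 6.55 CPM) and 45.9 against 26.9 CPM outside.

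In the repair rows, each of 9 hairpins is read at 61 positions, and a cut at a lesion shortens the strand to a set position. The share of a hairpin's UMIs at positions 44 to 50 is given here as its window share; the window was chosen with earlier results of these data known. In cluster 0 it holds the single position with most UMIs of the abasic hairpin (46) and of the first uracil hairpin (45). For the hairpins Uracil2 (20), GU (15) and riboG (9) that position lay outside the window in both libraries. For Uracil3 it lay outside too, at 14 with E2 and 20 with vehicle. In cluster 4 and in other cells called G2M, the first uracil hairpin had most UMIs at position 10. Uracil is removed from DNA by glycosylases such as UNG, the abasic site left behind is cut by APEX1, and a ribonucleotide is cut by RNase H2. Cluster 0 held 1235791 repair UMIs with E2 and 1034342 with vehicle, with medians of 1439 and 1098.5 per cell, beside 1263 and 890.5 in other cells. The sources used here do not say whether repair rows entered the authors' clustering.

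For the first uracil hairpin (Uracil1), the window share was 29.1% [28.8 to 29.4] in cluster 0 and 27.6% [27.4 to 27.8] in other cells with E2. With vehicle it was 29.4% [29.1 to 29.7] in cluster 0 and 26.9% [26.7 to 27.0] in other cells. These ratios, 1.05 and 1.09, set cluster 0 against a mixture of phases. Against other cells called G2M, which had 23.0% with E2 and 22.9% with vehicle, cluster 0 was 1.27 times [1.24 to 1.29] and 1.29 times [1.26 to 1.31] higher. Against other cells called S, which had 32.6% and 34.0%, it was 0.893 times [0.879 to 0.908] and 0.864 times [0.847 to 0.881]. Taken whole, cluster 0 stood between those 2 sets of cells on this hairpin in both libraries. Its own cells called G2M had 27.7% with E2 and 28.7% with vehicle, and its own cells called S had 34.5% [33.8 to 35.1] and 33.4% [32.6 to 34.2].

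Cluster 0 taken whole stood in the same order on the other uracil hairpins. Uracil2 had 15.6% in cluster 0 with E2, 18.3% in other S cells and 12.9% in other G2M cells, and with vehicle 16.0%, 19.5% and 13.0%. Uracil3, with the fewest UMIs (12542 with E2 and 10586 with vehicle in cluster 0), had 11.8% in each library in cluster 0. Other S cells had 15.2% and 14.9% on it, and other G2M cells 9.35% and 8.01%. The hairpin named GU had 9.03% and 8.41% in cluster 0, 10.4% and 9.61% in other S cells, and 7.47% and 6.73% in other G2M cells. Cluster 4 was below cluster 0 on all 4, for example at 21.7% and 22.7% on Uracil1. UNG, in all-gene rows, had 18.2 CPM in cluster 0 and 47.5 CPM in other cells with E2, and 27.7 and 27.2 CPM with vehicle. The UNG values of cluster 0 rest on few UMIs in each library, so their counting error is wide. Any link between UNG and the window shares was not tested.

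**Figure D5:**
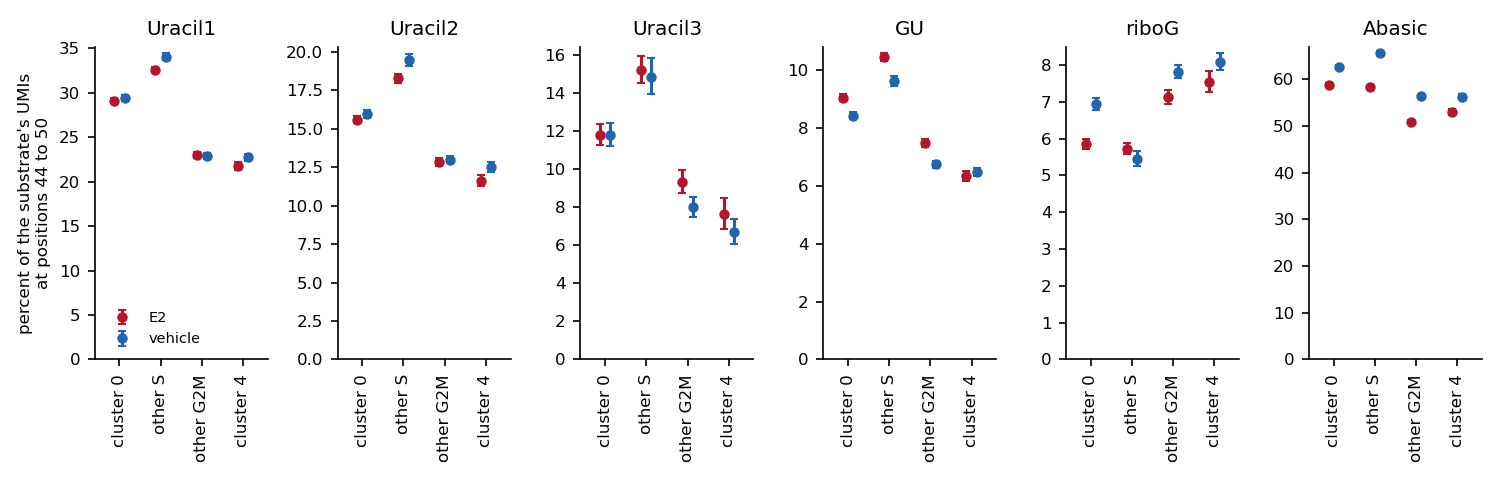
Window share (percent of each hairpin's UMIs at positions 44 to 50) for 6 hairpins in cluster 0, other cells called S, other cells called G2M, and cluster 4, with E2 in red, vehicle in blue and exact 95% binomial intervals. On Uracil1 cluster 0 (29.1% and 29.4%) lies between other S cells (32.6% and 34.0%) and other G2M cells (23.0% and 22.9%), and on riboG it is below other G2M cells (7.13% and 7.82%).

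The ribonucleotide hairpin (riboG) had nearly the reverse order. Its window share was 5.85% [5.71 to 5.99] with E2 and 6.94% [6.78 to 7.10] with vehicle in cluster 0. Other G2M cells had 7.13% and 7.82%, cluster 4 had 7.55% and 8.10%, and other S cells had 5.73% and 5.46%. With E2 the ratio of cluster 0 to other S cells was 1.02 [0.984 to 1.06], so they were not told apart. Cluster 0 was 0.774 times cluster 4 with E2 and 0.857 times with vehicle. The abasic hairpin had 58.8% [58.4 to 59.1] and 62.6% [62.2 to 63.0] in cluster 0, beside 57.5% and 64.1% in all other cells. Taken whole, cluster 0 had 1.16 times and 1.11 times the abasic share of other G2M cells. With only its own G2M cells counted, these ratios were 1.15 and 1.10. The hairpins CI and TI and the hairpin named Normal had window shares from 0.101% to 0.233% in cluster 0, and 0.0981% to 0.258% in other cells.

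Single hairpin positions told the clusters apart by less than the gene rows did. For these ratios a position's UMIs were divided by all repair UMIs of the group, not by those of its own hairpin. Of 332 positions, 0 were at least 2-fold higher (0.0%) and 0 at least 2-fold lower (0.0%) in cluster 0 in both libraries. The positions furthest from even were position 35 of Uracil1, at -0.88 log2 with E2 and -1.06 with vehicle, position 21 of Uracil2 (0.86 and 1.33) and position 13 of Uracil2 (-0.79 and -0.90). Position 13 of Uracil2 held 3.22% of that hairpin's UMIs in cluster 0 and 5.84% in other cells with E2, and 2.97% and 5.99% with vehicle.

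With E2 against vehicle inside cluster 0, 0 of 295 positions were at least 2-fold higher (0.0%) and 0 at least 2-fold lower (0.0%), by share of all repair UMIs. The Uracil1 window share hardly moved, at 29.1% with E2 and 29.4% with vehicle, a ratio of 0.990 [0.974 to 1.01]. The abasic window was lower with E2, at 0.938 times [0.925 to 0.952], and was 0.898 times [0.891 to 0.905] in other cells. The riboG window was 0.843 times [0.814 to 0.873] with E2 inside cluster 0, but 1.03 times [1.00 to 1.05] in other cells and 0.933 times [0.888 to 0.980] in cluster 4. RNASEH2A, the catalytic subunit of RNase H2, had 44.1 CPM with E2 and 25.5 CPM with vehicle inside cluster 0 in all-gene rows, from 63 and 35 UMIs. The GU window was 1.07 times [1.05 to 1.10] with E2 inside and 1.20 times [1.19 to 1.21] outside, and Uracil3 1.00 times [0.928 to 1.08] inside and 1.17 times [1.11 to 1.23] outside. By share of all repair UMIs, the positions that differed most inside the cluster were position 34 of Uracil2 (-0.43 log2), position 51 of Uracil1 (0.39) and position 41 of TI (-0.38).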

How the data were processed

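Cells of MM134 were profiled with 1 library per treatment and assay. The members and gene lists were chosen with earlier results of these data known, and the list of histone genes (symbols starting HIST1H, HIST2H or HIST3H) was drawn up after values were seen.

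The authors deposited a matrix of natural log values with 1 column per cell. To make an entry, a count was divided by its cell's block total, multiplied by 10000 and raised by 1, and the natural log was taken. Whole UMI counts were recovered for 100% of values above 0, within 1e-06, and summed to the totals the authors deposited in 100% of cells. The recovered counts were used throughout. The authors also deposited the mitochondrial percent, the phase and the cluster per cell; scores per cell that they deposited were not used. The sources used here do not say how clusters and phases were made or how the all-gene rows were sequenced. Bowtie2 2.3.2, Cell Ranger 3.0.2, SAMtools, UMI-tools 0.5.3, cutadapt 1.8.3 and the hg38 build are named, with no role, per the submitters' processing notes. Of the matrix's cell columns, 0 had no sample.

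UMIs were summed over cells and divided by the block total (CPM, exact Poisson intervals). Ratios have Clopper-Pearson 95% intervals conditional on the sum, and shares exact binomial ones. A gene was tested for the 2-fold rule with at least 200 UMIs over the groups compared and 20 CPM in 1 of them. With 1 library per group there is no replicate and no p-value; p-values over cells were not computed. Depth limits genes under about 50 UMIs to wide intervals.

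Always named were MDC1, ESR1, PGR, PARP1, PARP2, MKI67, TOP2A, CCNB1, CDK1 and PLK1. For cluster 0 against other cells the 12 highest and 8 lowest genes by the library nearer 0 were taken, for E2 the 12 highest and lowest, against cluster 4 the 8 highest and lowest, inside against outside the 5 largest differences each way, and up to 4 members per list. The text gives a selection of these. HIST2H2BE, SLBP and HIST1H2BH were named after values were seen. Doublets were not called, and an alternative dropped the deepest 5% of cells. The scripts were tested on simulated data. Phases were called again for the thinned cells from the S and G2/M lists, and at full depth 92.8% of 8307 cells had the authors' phase. Python 3.11.15, numpy 2.4.6, pandas 2.3.3, scipy 1.17.1 and matplotlib 3.10.9 were used.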

Additional observations from a re-analysis of the deposited data

Results flagged for a closer look

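Effects that ran opposite ways in 2 sets of cells, with intervals on opposite sides of even and, for genes, at least 0.5 log2 apart (a threshold chosen after values were seen), are listed as values. None of the differences was tested. The scan covered the genes named by the rule (139 panel, 247 all-gene), and 16 gene ratios, with CCNE2 in both blocks, and 4 hairpin ratios met this. Some of these genes were named because they differed most between inside and outside, so part of the outcome was fixed by that choice.

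In panel rows, the log2 ratio of E2 to vehicle was -0.059 inside cluster 0 and 0.54 in other cells for HIST1H3B, and 0.14 inside and -0.45 outside for HIST1H2BD. For CCNE2 it was -0.12 inside and 0.48 outside, for BRCA2 -0.28 and 0.36, for FANCI -0.063 and 0.48, and for BRIP1 -0.21 and 0.44. For ZNF519 it was -0.46 inside and 0.31 outside, and for PLAUR -0.40 and 0.26. MCM2 had a log2 ratio of cluster 0 to other cells of -0.29 in the E2 library and 0.26 in the vehicle library. TXNIP had a log2 ratio of G2M to S cells inside cluster 0 of -0.28 with E2 and 0.57 with vehicle.

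In all-gene rows, the log2 ratio of E2 to vehicle was -0.85 inside cluster 0 and 1.02 outside for NEIL3, -0.53 and 0.43 for FBXO5, and -0.51 and 0.39 for CCNE2. For SEC16A it was 0.43 inside and -0.32 outside, and for PCLAF -0.28 and 0.66. XRCC2 had a log2 ratio of cluster 0 to other cells of -0.34 with E2 and 0.48 with vehicle.

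Among the hairpins, the abasic window share in cluster 0 was 1.02 times that of other cells with E2 and 0.977 times with vehicle, and the riboG share 0.966 times and 1.18 times. The ratio of E2 to vehicle was 0.976 inside cluster 0 and 1.02 outside for Uracil2, and 0.843 inside and 1.03 outside for riboG.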

How the results depend on the processing

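No paired analysis was possible because each treatment has 1 library per assay, and for the same reason no replicate could be left out. The count of panel genes at least 2-fold lower in cluster 0 (3) was 6 with totals that leave out the 10 most abundant genes, 5 without the 5% of cells with most UMIs, and 5 as a mean over cells. Among cells called G2M, where 734 panel and 2134 all-gene genes were tested, 7 panel genes were higher. In all-gene rows 14 were higher and 10 lower. With a minimum of 50 UMIs, or with no minimum, the all-gene counts were 57 and 58 higher, and 7 and 7 lower. As a mean over cells 57 were higher. For E2 inside the cluster, the panel count lower (12) was 7 with median-of-ratios size factors and 21 at 50 UMIs or with no minimum. In all-gene rows it was 52 higher and 78 lower at 50 UMIs, 79 and 115 with no minimum, and 8 lower in G2M cells. At 50 UMIs, cluster 0 against cluster 4 gave 52 higher and 67 lower, and G2M against S cells 22 and 18. These low minimums admit genes with wide intervals.

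The abasic ratio of cluster 0 to other cells with E2 (1.02) was 0.998 at positions 45 to 46, 0.986 as a mean over cells, 0.985 without the 5% of cells with most UMIs, and 1.15 in G2M cells. With vehicle (0.977) it was 0.936, 0.953, 0.944 and 1.10. The Uracil1 ratio was 1.07 with E2 as a mean over cells and 1.21 in G2M cells, and with vehicle 1.07 at positions 45 to 46 and 1.25 in G2M cells. The Uracil1 ratio of E2 to vehicle was 0.966 in G2M cells. The riboG ratio with E2 (0.966) was 0.933 at positions 45 to 46, 1.02 as a mean over cells, 1.01 without the 5% of cells, and 0.826 in G2M cells. With vehicle (1.18) it was 1.26 as a mean, 1.25 without the 5%, and 0.914 in G2M cells. The G2M share of vehicle cells was 78.7% thinned. Among named genes, TOP2A (-0.16 in panel rows, -0.13 in all-gene rows) and MKI67 (-0.16) changed sign in G2M cells. So did 4 all-gene mitotic lists and the panel CDK1 and cyclin list (-0.63). Over all settings 970 of the other values stayed and 141 moved. A setting that only lowers the UMI minimum leaves a gene's ratio unchanged, so those 970 include values that could not move. For cluster 0 against other cells, 21 named panel values moved in G2M cells and 4 stayed. In all-gene rows 19 moved and 9 stayed. The cause was not tested.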
